A study of Mus musculus with 8 samples.

Results

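Monoamine synthesis and transport in brain was followed through 3 genes, Ddc, Slc18a2 and Slc6a4, each measured by 1 spot of a 2-colour cDNA array. They are the genes with a usable named spot among 10 chosen by symbol for making, storing or taking up monoamines, and they stand among 8653 genes with named spots. Dbh, Slc6a2 and Tph1 are listed only for spots near the end of the array, where the naming is uncertain, and Th, Tph2, Slc18a1 and Slc6a3 were not analysed here. The RNA came from whole brain of 4 male mice of 19 weeks with the genotype ADAR-/-/GluR-BR/R, which lack the RNA-editing enzyme ADAR2 and in which both alleles of GluR-B, an AMPA receptor subunit, encode arginine at the edited site. Its reference was 1 pool of brain RNA, made from wildtype males that were also 19 weeks old, 4 by the design, while the labelling protocol gives another number. Each mutant mouse was hybridised on 2 arrays, with the mutant RNA in Cy5 on the first and in Cy3 on the second, so that 8 arrays stand for 4 mice. The labels used here name no strain, and the pool, as 1 sample, carries no spread between wildtype mice.

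Dopamine, noradrenaline and serotonin are made from aromatic amino acids in small groups of neurons of the midbrain and brainstem whose axons reach most of the brain. A hydroxylase that needs tetrahydrobiopterin makes the precursor, and aromatic L-amino acid decarboxylase, the product of Ddc, turns L-DOPA into dopamine and 5-hydroxytryptophan into serotonin. The vesicular monoamine transporter VMAT2, the product of Slc18a2, loads the amines into synaptic vesicles, and the serotonin transporter, the product of Slc6a4, returns released serotonin to the neuron. In whole-brain RNA these transcripts are diluted by those of all other cells, and fewer cells of a type and less RNA per cell cannot be told apart.

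By the RefSeq gene table (GRCm38.p6), Ddc lies on chromosome 11 (11814101 to 11898144), Slc6a4 on the same chromosome (76998597 to 77032343) and Slc18a2 on chromosome 19 (59260878 to 59296012). The stretches that RefSeq gives around their transcription starts are shown so that the starts of the 3 genes can be compared. They cover 250 bases before and 50 after the start on the strand of the gene. Which start of Ddc was in use was not examined. Capitals mark the letters TGACGTCA, the full cyclic AMP response element, and GGGCGG, the core of an Sp1 site. They also mark TATAAA, the box near many starts, and GATAA, which zinc finger factors of that name bind. All were searched on both strands, and no matches overlapped.
Ddc, upstream start (chr11:11898095-11898394, minus strand): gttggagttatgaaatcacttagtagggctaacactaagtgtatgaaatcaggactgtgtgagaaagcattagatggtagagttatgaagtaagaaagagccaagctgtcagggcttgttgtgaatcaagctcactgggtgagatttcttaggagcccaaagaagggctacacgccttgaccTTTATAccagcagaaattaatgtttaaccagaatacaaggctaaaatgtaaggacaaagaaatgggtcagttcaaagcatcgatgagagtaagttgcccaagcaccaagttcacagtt
Ddc, downstream start (chr11:11890359-11890658, minus strand): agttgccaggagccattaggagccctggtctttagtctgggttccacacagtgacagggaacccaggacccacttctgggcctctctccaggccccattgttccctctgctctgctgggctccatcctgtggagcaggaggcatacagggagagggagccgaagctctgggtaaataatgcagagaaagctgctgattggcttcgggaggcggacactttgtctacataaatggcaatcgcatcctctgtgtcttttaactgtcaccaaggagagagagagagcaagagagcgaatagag
Slc18a2 (chr19:59260628-59260927, plus strand): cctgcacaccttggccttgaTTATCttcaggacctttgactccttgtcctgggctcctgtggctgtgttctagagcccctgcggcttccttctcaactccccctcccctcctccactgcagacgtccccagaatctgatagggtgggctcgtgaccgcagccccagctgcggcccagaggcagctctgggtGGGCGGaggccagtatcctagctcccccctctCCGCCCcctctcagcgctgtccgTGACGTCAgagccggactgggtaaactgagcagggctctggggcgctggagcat
Slc6a4 (chr11:76998347-76998646, plus strand): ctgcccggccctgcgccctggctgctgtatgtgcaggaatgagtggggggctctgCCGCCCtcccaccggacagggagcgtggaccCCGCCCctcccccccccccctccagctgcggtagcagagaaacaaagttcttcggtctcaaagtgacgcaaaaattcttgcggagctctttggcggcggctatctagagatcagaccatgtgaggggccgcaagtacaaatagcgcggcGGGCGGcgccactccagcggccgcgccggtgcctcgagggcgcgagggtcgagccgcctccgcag
Slc18a2 had the cyclic AMP response element across its start, beginning 4 bases before it, GGGCGG on both strands and GATAA on the reverse strand, and Slc6a4 had GGGCGG at 3 places. The upstream start of Ddc had TATAAA on the reverse strand and its downstream start had none of the 4 motifs. Of 32851 RefSeq promoters of this length, 1.79% hold TGACGTCA, 35.7% GGGCGG, 13.6% TATAAA and 25.4% GATAA. These are matches of letters only.

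All values are log2 ratios of the channels from the deposited table, with the median of each array subtracted, so that 0 is the middle of the array. Which channel stands on top of the ratio is stated nowhere in the labels. Values are therefore given by dye orientation and as 2 summaries per mouse. The mean ratio averages a mouse's 2 arrays, and is the contrast of mutant and pool, with its sign unknown, if every deposited ratio has the same RNA on top. The swap component subtracts the array with the mutant in Cy3 from that with the mutant in Cy5 and divides by 2, and equals mutant over pool if every deposited ratio is Cy5 over Cy3. On each reading the other summary is the effect of the dye. Spot intensities were not used here, so whether a transcript was well above background on an array, and whether the brain label fits the levels of its marker genes, could not be examined. The 8 arrays held 20211 to 20559 usable ratios each, and replicate arrays of the mutant in Cy5 correlated less (Pearson r = 0.224 to 0.401 across spots, 6 pairs) than those of the mutant in Cy3 (0.425 to 0.677, 6 pairs), which also spread more (SD of all values 0.83 in Cy5 and 1.15 in Cy3). Adarb1, the disrupted gene, had swap components of -1.23 and -1.33 for 2 of its spots (moderated SE of limma 0.163 and 0.267, adjusted p = 0.0383 and 0.0424) and -0.10 for the third (adjusted p = 0.628). Of 18797 spots, 0.0372%, 0.016% and 43.5% had lower swap components than these 3. Their mean ratios were 0.70, 0.26 and 0.12 (adjusted p = 0.0297, 0.667 and 0.631). Which summary is mutant over pool was not tested. Every call in the swap component rests on the array medians and on all 4 mice: limma called 0 spots with values as deposited (5785 at an unadjusted p below 0.05) and 0 without any mouse (4106 to 5417).

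All 3 spots had a mean ratio near -1, and Ddc and Slc18a2 passed the test. Of the 20595 spots tested, 13.3% were likewise negative and called at an adjusted p below 0.05. In these arrays Ddc was low with the mutant in Cy3, and Slc18a2 was lower with the mutant in Cy5. Across the 7 arrays with both values their ratios ran in opposite directions (Pearson r = -0.689, a description over arrays that share the pool). Within the Cy5 arrays they also did: mice 2 and 4 had the higher Ddc values (0.17 and 0.46) and the lower Slc18a2 values (-1.60 and -2.14). Mice 1 and 3 had Ddc at -1.06 and -0.63 and Slc18a2 at -0.94 and -0.72. Within the Cy3 arrays of mice 1 to 3 they did not. Ddc stood there at -2.02, -2.07 and -0.72 and Slc18a2 at -0.82, -0.51 and -0.11, both highest in mouse 3. The Cy3 array of mouse 4, with Ddc at -4.00, has no Slc18a2 value. Their mean ratios were -1.24 for Ddc and -1.12 for Slc18a2. Their swap components had opposite signs, 0.97 for Ddc and -0.31 for Slc18a2, and neither passed the test. The adjusted p of limma was 0.127 for Ddc, and 0.288 for Slc18a2 in a fit that admitted spots with 3 or more mice. Without mouse 4, whose Slc18a2 value comes from its Cy5 array alone, the mean ratios were -1.06 for Ddc and -0.78 for Slc18a2.

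Ddc (spot 10354) stood at -1.06, 0.17, -0.63 and 0.46 in mice 1 to 4 with the mutant in Cy5. In Cy3 the same mice stood at -2.02, -2.07, -0.72 and -4.00. The Cy5 values lay on both sides of 0 and the Cy3 values were all negative, with 3 of the 4 below every Cy5 value. The value of mouse 4 in Cy3 is a linear ratio of 0.0623, and 0.295% of the spots of that array were lower. In the same mouse with the dyes exchanged, 76% of spots were lower than Ddc. Mouse 3 was the only animal whose 2 arrays nearly coincided.

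The mean ratio of Ddc was -1.24 ± 0.506 (SD, n = 4), with the mice at -1.54, -0.95, -0.68 and -1.77 (limma, moderated SE 0.222, 95% interval -1.79 to -0.68, adjusted p = 0.0142). All 4 mice were below 0, and the summary is a linear ratio of 0.425. If every deposited ratio has the same RNA on top, this is the contrast of mutant and pool, with its sign unknown. If the ratios are Cy5 over Cy3, it is the effect of the dye. By the same test 13.3% of the 20595 spots tested were negative and called at an adjusted p below 0.05, and Ddc was at place 1012 from the lowest. All 4 mouse means were negative for 23.9% of spots. The call held without each mouse in turn (adjusted p = 0.0462 to 0.0484) and with runs of 48 neighbouring spots centred (-0.94, adjusted p = 0.0493). From the Cy3 arrays alone Ddc was at -2.20 ± 1.35 (SD, n = 4, adjusted p = 0.0243), where 13.5% of 19308 spots were negative and called. That call was lost without mouse 1 or mouse 2 (-2.27 and -2.25, adjusted p = 0.0634 and 0.077) and with runs of 48 spots centred (-1.61, adjusted p = 0.091). The Cy5 arrays alone gave -0.27 ± 0.704 (SD, n = 4, adjusted p = 0.598), where limma called 0 of 19898 spots and 23.9% had an unadjusted p below 0.05.

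The swap component of Ddc was 0.97 ± 0.952 (SD, n = 4), with the mice at 0.48, 1.12, 0.04 and 2.23. All 4 were positive, as for 14% of spots, and they ranged from near 0 to above 2. The value missed the threshold (moderated SE 0.351, 95% interval 0.11 to 1.83, unadjusted p = 0.0325, adjusted p = 0.127), while 7.84% of 18797 spots were called and 1.41% were called and positive. If the ratios are Cy5 over Cy3, this is a mutant over pool ratio of 1.96 that did not pass the test. It was above 99.3% of all spots, and above 97.3% of the 443 spots whose mean ratio lay within 0.1 of that of Ddc, whose median swap component was 0.24. The spread between mice was larger than for 96.1% of spots, and without mouse 4 the swap component was 0.55 (adjusted p = 0.212).

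**Figure D1:**
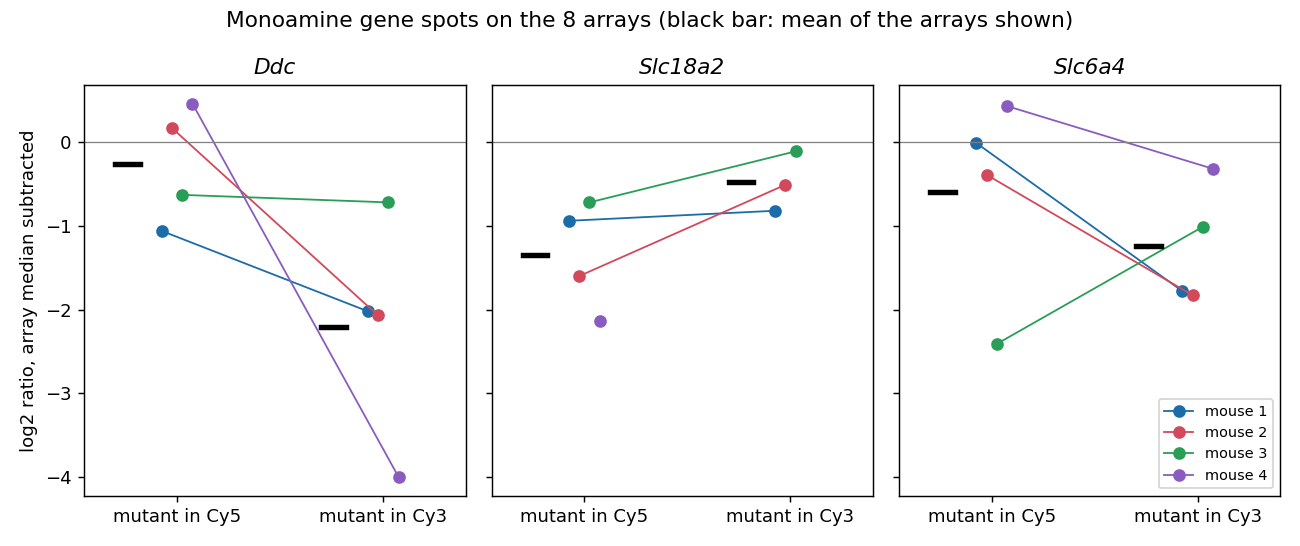
Log2 ratios with the array median subtracted (vertical axis) for the spots of Ddc, Slc18a2 and Slc6a4, with the mutant in Cy5 at the left and in Cy3 at the right of each panel. Points are arrays, lines join the 2 arrays of a mouse and black bars are means of the arrays shown. Ddc is lower in Cy3, down to -4.00 in mouse 4, and Slc18a2 is lower in Cy5, with no Cy3 value for mouse 4.

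Slc18a2 (spot 13461) stood at -0.94, -1.60, -0.72 and -2.14 in mice 1 to 4 with the mutant in Cy5. In Cy3 it stood at -0.82, -0.51 and -0.11 in mice 1 to 3, and the deposited cell of mouse 4 is empty. All 7 values were negative, as for 9.64% of the 19098 spots with values on these arrays. In each of the 3 mice with both arrays the Cy5 array was the lower, by little in mouse 1.

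The mean ratio of Slc18a2 was -1.12 ± 0.731 (SD, n = 4), with the mice at -0.88, -1.06, -0.41 and -2.14 (limma, moderated SE 0.294, 95% interval -1.85 to -0.39, adjusted p = 0.0376). The value of mouse 4 is its Cy5 array alone. The summary is a linear ratio of 0.459, and 6.82% of spots were lower. As for Ddc, it is either the contrast of mutant and pool, with its sign unknown, or the effect of the dye. Of the 20595 spots tested, 13.3% were negative and called, and 23.9% had all 4 mouse means negative. The call rested on every mouse: it was lost without mouse 1 (-1.20, adjusted p = 0.0764), mouse 2 (-1.14, adjusted p = 0.105), mouse 3 (-1.36, adjusted p = 0.0533) or mouse 4 (-0.78, adjusted p = 0.0623). Such losses were common: over all spots, 6256 were called with all 4 mice and 2483 to 3931 with a mouse left out. With the mutant in Cy5 alone, where the spot had all its values, it was at -1.35 ± 0.647 (SD, n = 4, unadjusted p = 0.00292, adjusted p = 0.0805), and 2.56% of spots were lower.

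The swap component of Slc18a2 was -0.31 ± 0.245 (SD, n = 3), with mice 1 to 3 at -0.06, -0.55 and -0.31. All 3 were negative, against positive values for Ddc in the same mice. In a fit that admitted spots with 3 or more mice it had an adjusted p of 0.288. If the ratios are Cy5 over Cy3, the mutant over pool ratio is 0.809 in 3 mice and did not pass the test. Among the 603 spots with a mean ratio within 0.1 of that of Slc18a2, 5.47% had a lower swap component and the median was 0.23. That match is uneven: it used the mean ratio of 4 mice, -1.12, with mouse 4 from its Cy5 array alone. Mice 1 to 3, which gave the swap component, had a mean ratio of -0.78.

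Slc6a4 (spot 5095) stood at -0.01, -0.39, -2.41 and 0.43 in mice 1 to 4 with the mutant in Cy5. In Cy3 it stood at -1.78, -1.83, -1.01 and -0.32. The Cy3 arrays were all negative and the lower of the pair in mice 1, 2 and 4, while mouse 3 had its lowest value in Cy5. The Cy5 value of mouse 1 equals a channel ratio of 1 to 1 within 0.001 on the log2 scale before the array's additive constant. Within that tolerance 4.76% to 8.73% of values per array matched a ratio of whole numbers up to 10. The value of mouse 1 was the only match among the 23 values of the 3 spots. The constant was set by taking the highest value of the array as a ratio of 100000. The share of matches expected without such a pattern was not estimated.

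The mean ratio of Slc6a4 was -0.92 ± 0.733 (SD, n = 4), with the mice at -0.90, -1.11, -1.71 and 0.05, and it missed the threshold (moderated SE 0.294, 95% interval -1.65 to -0.19, adjusted p = 0.0646). It passed with the values as deposited (-1.08, adjusted p = 0.0468) and without mouse 4 (-1.24, adjusted p = 0.0414), the animal above 0. With the mutant in Cy3 alone it was at -1.24 ± 0.714 (SD, n = 4, adjusted p = 0.029), a call that was lost without mouse 1 (-1.05, adjusted p = 0.0866), mouse 2 (-1.04, adjusted p = 0.108) or mouse 3 (-1.31, adjusted p = 0.0771). The Cy5 arrays alone gave -0.59 ± 1.26 (SD, n = 4, adjusted p = 0.468). The swap component was 0.32 ± 0.713 (SD, n = 4), with the mice at 0.89, 0.72, -0.70 and 0.38 (95% interval -0.34 to 0.99, adjusted p = 0.46). Here mouse 3 alone was negative, and the median of the 887 spots of like mean ratio was 0.20. Over the 8 arrays Slc6a4 and Ddc had a Pearson r of 0.2, and over 7 arrays Slc6a4 and Slc18a2 had -0.666.

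**Figure D2:**
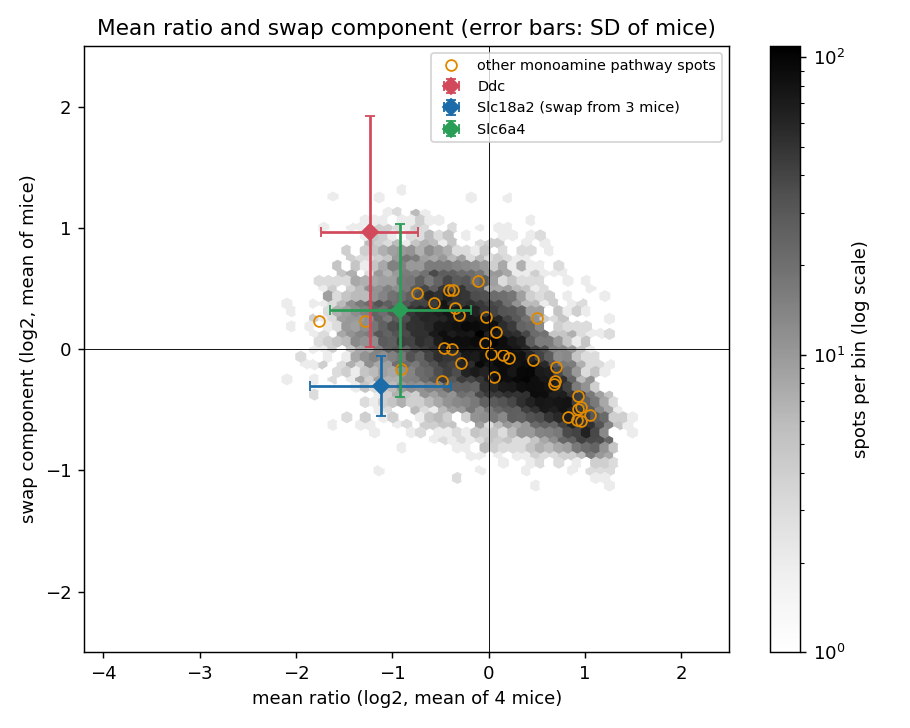
Mean ratio (horizontal axis, log2) against swap component (vertical axis, log2) for all spots with values on 8 arrays (grey bins, log colour scale), the 33 other pathway spots with both summaries (open circles) and the 3 monoamine spots (diamonds, with SD of mice as bars). Ddc lies at -1.24 and 0.97, above most spots of like mean ratio, and Slc18a2 at -1.12 and -0.31, below most of them. For Slc18a2 the mean ratio is from 4 mice and the swap component from mice 1 to 3.

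Around these genes 86 others of amine metabolism, reception and transport were listed, and 31 of them were measured by 37 spots. Of the 35 spots tested in the mean ratio, 4 were negative and 10 positive past the threshold, beside 13.3% negative and 17% positive among all spots, with a median of -0.03 against -0.09 over all spots. The negative calls were Gch1, Maob, Sult1a1 and Drd2, and without mouse 1, 2, 3 or 4 in turn the only negative call was Drd2 (spot 8769), with 6 to 9 positive ones. With runs of 48 spots centred 3 were negative, Drd2, Gata2 and Slc6a6, and 6 positive. In the swap component 4 of 33 were negative and none of the 33 positive past the threshold, beside 6.43% and 1.41% of all spots.

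The hydroxylases upstream of Ddc depend on tetrahydrobiopterin, and the enzymes that make and recycle it lay on both sides of 0. Gch1, GTP cyclohydrolase, which opens its synthesis, had mouse means of -0.80, -0.25, -1.76 and -0.84 (mean ratio -0.91, moderated SE 0.26, adjusted p = 0.0471). All 4 mice were negative, with mouse 3 the lowest. Qdpr, dihydropteridine reductase, which regenerates the cofactor, had 1.03, 0.84, 0.80 and 1.02 (mean ratio 0.92, adjusted p = 0.00965), and its swap component was -0.59 (adjusted p = 0.0459). Its mice lay much closer together than those of Gch1. Pts and Spr, which complete the synthesis, and Pcbd1, which helps recycle it, stood at -0.38, -0.56 and 0.08 (adjusted p = 0.168, 0.166 and 0.692).

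Of the enzymes that break down or modify amines, Maob, monoamine oxidase B, had mouse means of -1.44, -0.60, -2.13 and -0.33 (mean ratio -1.12, adjusted p = 0.0487), with mouse 2 from 1 array. Sult1a1, a phenol sulfotransferase, had -3.99, -2.91, -0.82 and -1.0 (mean ratio -2.18, adjusted p = 0.0378), each from 1 array per mouse. Maoa, monoamine oxidase A, stood at -0.29 (adjusted p = 0.314) and Hdc, the decarboxylase that makes histamine, at -0.11 (adjusted p = 0.722). Aldh2, an aldehyde dehydrogenase, had spots at 0.68 (adjusted p = 0.0222) and -1.76 (adjusted p = 0.115, mouse 1 at -4.64), and Aldh1a1, found in dopamine neurons, had 0.50 (adjusted p = 0.0613).

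The spots of the dopamine receptor gene Drd2 disagreed. Spot 8769 had mouse means of -0.88, -1.06, -1.57 and -1.61 (mean ratio -1.28, adjusted p = 0.00965). Spot 18867 had 0.57, 0.50, 0.77 and 0.98 (mean ratio 0.70, adjusted p = 0.0203), and spot 9059 stood at -0.37 (adjusted p = 0.237). The 2 called spots of this gene had opposite signs in all 4 mice, and Ddc, Slc18a2 and Slc6a4 have 1 spot each, without a second to set beside it. Drd4 stood at -0.35 (adjusted p = 0.416). The serotonin receptors Htr3a, Htr6 and Htr7 stood at -0.74, 0.21 and -0.03, none past the threshold (lowest adjusted p = 0.174), and Htr2c, whose transcript ADAR enzymes edit, was not analysed here. Of the transcription factors of monoamine neurons, Gata2, Nr4a2 and Phox2a gave 4 tested spots from -0.46 to 0.05, none past the threshold (lowest adjusted p = 0.0913). Gata3 had no value in mouse 3 and was not tested, with mice 1, 2 and 4 at -2.30, -3.66 and 0.87, mouse 2 from 1 array.

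Most tested spots of other transporters of the vesicle and the plasma membrane lay above 0. Slc32a1, which loads GABA and glycine into vesicles, had mouse means of 0.91, 1.02, 0.94 and 0.86 (mean ratio 0.93, adjusted p = 0.00941). Sv2a, a protein of synaptic vesicles, had 0.96, 0.78, 1.23 and 1.25 (mean ratio 1.06, adjusted p = 0.00964), and its swap component was -0.54 (adjusted p = 0.0459). Slc17a8, a vesicular glutamate transporter, stood at -0.31 (adjusted p = 0.516). Slc17a7 (spot 16639), another of that kind, had no value in mouse 1 and was not tested, with mice 2 to 4 at -3.18, -2.87 and 1.24. Of 9 spots of other carriers, 5 were positive and none of the 9 negative past the threshold, beside 17% positive and 13.3% negative among all spots. Among them were the GABA transporter Slc6a11 (0.96, adjusted p = 0.00958), the creatine transporter Slc6a8 (0.93, adjusted p = 0.00958) and the glycine transporter Slc6a9 (0.69, adjusted p = 0.0203). The neuronal amino acid transporter Slc6a17 had spots at 0.96, 0.83 and 0.46, the last not past the threshold (adjusted p = 0.0887), and its first 2 had swap components of -0.60 and -0.56 (adjusted p = 0.0396 and 0.0405). Slc22a2, an organic cation transporter that also carries monoamines, stood at 0.03 (adjusted p = 0.938), and the taurine transporter Slc6a6 at -0.48 (adjusted p = 0.0554).

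**Figure D3:**
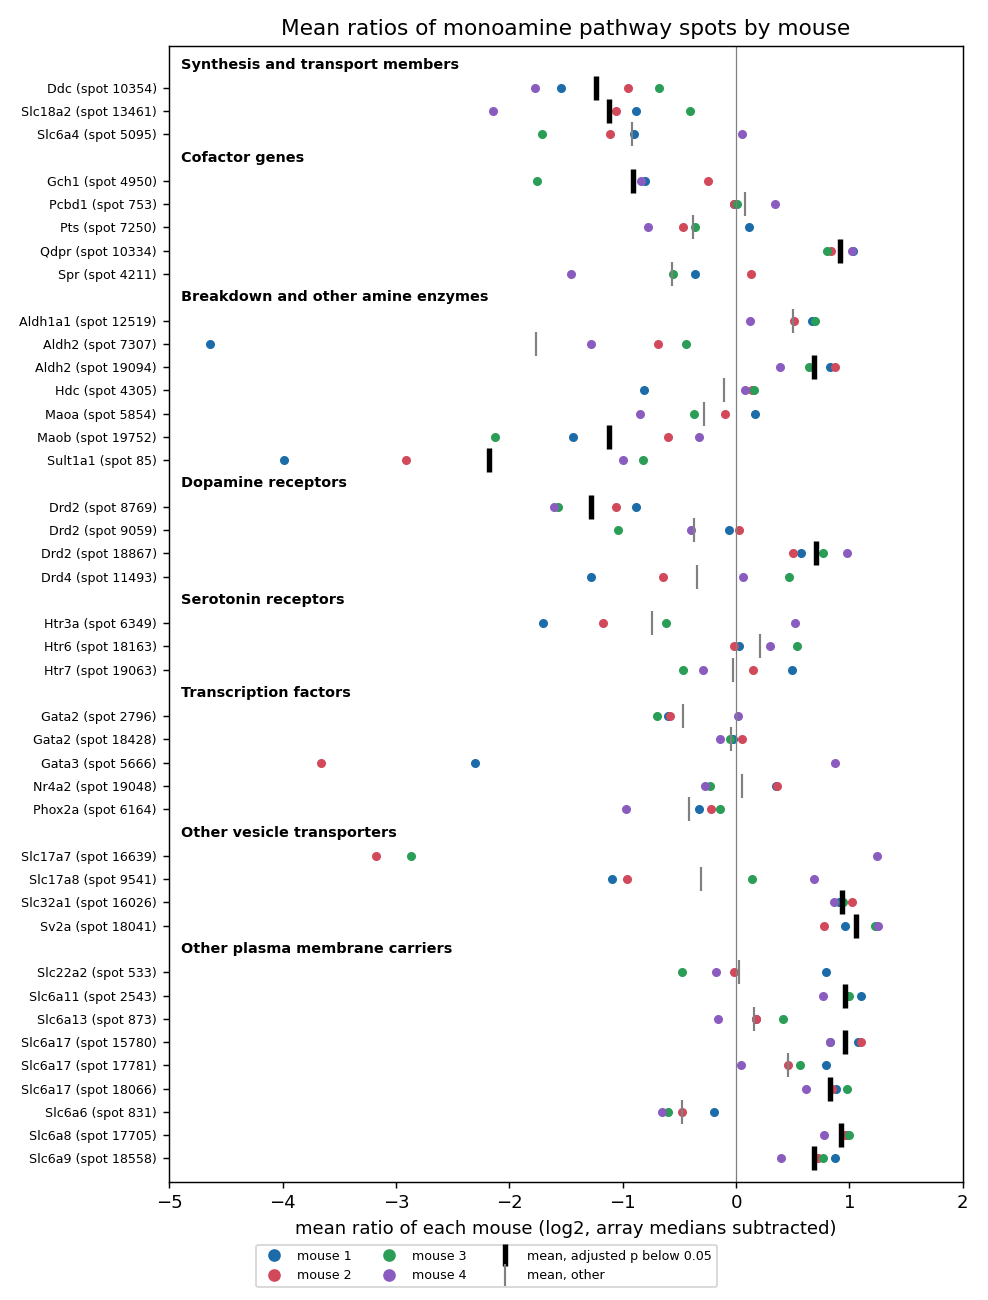
Mean ratio of each mouse (horizontal axis, log2, array medians subtracted) for each spot of the monoamine genes and the pathway lists (rows), coloured by mouse, with thick black ticks for means past an adjusted p of 0.05 and thin grey ticks for other means tested. Ddc and Slc18a2 are negative in all 4 mice, while Slc32a1, Sv2a, Slc6a11, Slc6a8 and 1 spot of Slc6a17 have means of 0.93 to 1.06, and the other Slc6 carrier spots lie lower, down to -0.48 for Slc6a6.

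Cells outside the monoamine neurons also hold these transcripts, among them mast cells and platelets, which carry Slc18a2. The mast cell markers Cpa3 and Tpsb2 stood at -1.31 and -1.04 in the mean ratio (adjusted p = 0.0913 and 0.0643), 2 of 7 listed. Mice 2 and 4 of Cpa3, at -2.55 and 0.50, were its lowest and highest and each came from 1 array. Of 13 platelet and blood spots, 5 were negative and 6 positive past the threshold, beside 13.3% negative and 17% positive among all spots. Of the platelet genes, Pf4 at -0.72 and Gp9 at -0.52 were negative (adjusted p = 0.019 and 0.0458) and Itga2b at 0.72 was positive (adjusted p = 0.0455). For Pf4, mouse 2 came from 1 array. The other negative calls were Alas2, S100a8 and 1 of 2 spots of S100a9. The other 5 positive ones were all spots of the haemoglobin gene Hba-a1, which had a further spot at -0.02 (adjusted p = 0.957). By the same threshold and against the same shares of all spots, 1 of 4 endothelial and pericyte spots was negative and 2 were positive, 1 of 5 pituitary spots was negative, and the pineal marker Sag stood at -0.58 (adjusted p = 0.159). Their part in the result was not tested. In the brain itself, 8 of 12 neuron spots, 6 of 11 astrocyte spots and 4 of 6 oligodendrocyte spots were positive past the threshold in the mean ratio. No spot of these lists was negative past it, again beside 17% and 13.3% of all spots. Their swap components went the other way, with medians of -0.51, -0.28 and -0.47. In that summary 3 of 11, 2 of 11 and 2 of 6 tested spots were negative past the threshold and none positive. Among all spots 6.43% were negative and 1.41% positive past it.

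The spots whose 8 ratios ran most like those of Ddc were Slc14a1, a urea transporter (Pearson r = 0.99), Slc17a3, a kidney anion transporter (0.981), and Lilra6, a leukocyte receptor (0.976), and 35 of 11099 named spots were above 0.9. Their mean ratios were -0.41, -0.42 and -0.47 and their swap components 0.57, 0.51 and 0.78. For Slc18a2 they were Ufsp2, a peptidase of the UFM1 pathway (0.984 over 7 arrays), Smarcc2, a subunit of the BAF remodeling complex (0.98), and Pmp22, a myelin protein (0.976), all with positive mean ratios (0.36, 0.68 and 0.45). For Slc6a4 they were Mpg, a DNA glycosylase (0.937), Cd59b (0.931) and Brdt, a bromodomain protein of testis (0.927). The likeness is over arrays that share the pool and the dye swap, and it is one of shape and not of size.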

How the data were processed

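Per the labels' protocols, brain total RNA of each mutant was copied into cDNA, coupled to Cy5 or Cy3 and hybridised to 2-colour arrays beside a wildtype pool. The deposited table gives 20794 spots on 8 arrays as log2 ratios. The log2 scale was inferred from the values. No source used here states the scanner, background correction, centring or numerator. Values equal to log2 of 100000 plus an array constant (1 to 30 per array) and empty cells (221 to 553) were treated as missing, and the median of each array was subtracted. Per mouse the mean of its arrays and the swap component were formed, and an intercept-only fit in limma 3.58.1 under R 4.3.3 (lmFit, then eBayes) compared them with 0 over all spots with a value in every mouse, adjusted by Benjamini-Hochberg and called below 0.05. The function was tested on simulated data. Since the reference is 1 pool, p-values measure no spread between wildtype mice. They rest on the spread between the 4 mutant mice, moderated by limma over all spots, which also holds that of their arrays. The 4 mice and 1 pool limit the precision.

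Gene names were read from the platform annotation at the listed number plus 11, up to number 20000, which named 12131 spots. Mean ratios of 2 probes of a gene then had a Spearman rho of 0.256 over 2529 genes, against -0.0101 at the same number and 0.0798 at the next best of 201 shifts. Within 400 spots of Ddc, Slc18a2 and Slc6a4 it was 0.227, 0.253 and 0.361, against 0.139, 0.174 and 0.164 at the next best. For swap components there it was 0.293, 0.197 and 0.336, against 0.158, 0.154 and 0.135, with the narrowest margin near Slc18a2. The shift was found in the values. Members, lists and tests were chosen with earlier results of these data known, and the promoter motifs and the comparison at like mean ratio after the sequences and values were seen. The named spots are every member, called members of the lists with further ones for context, and 3 named spots most like each member; Slc6a4 was added to that rule after its values were seen.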

Additional observations from a re-analysis of the deposited data

How the results depend on the processing

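The arrays were paired by mouse in the mean ratio and the swap component, and with 1 pool there was no second group to pair with the mutants. The mean ratios of Ddc and Slc18a2 kept their sign under every alternative run and their call as deposited, with runs of 48 spots centred, with scaled spread, with a robust prior and with code values kept. With runs centred both calls lay at the threshold (limma, adjusted p = 0.0493 for Ddc and 0.0494 for Slc18a2). With scaled spread Slc18a2 had an adjusted p of 0.0426. Slc6a4 passed as deposited (-1.08). With values required on all 8 arrays Slc18a2 left the test, and 1 of 2 members was called. Leaving out each mouse gave mean ratios of -1.42 to -1.06 for Ddc, -1.36 to -0.78 for Slc18a2 and -1.24 to -0.65 for Slc6a4, with 1 to 2 members and 2483 to 3931 spots called in place of 6256. The swap component called 1473 spots, 949 in the added fit with 3 or more mice, and 0 as deposited, with runs centred, with scaled spread and without any mouse (limma, 5785, 4958 and 3815 at an unadjusted p below 0.05 in the first 3 and 4106 to 5417 without a mouse). With the mutant in Cy3 alone, leaving out each mouse gave 3006 to 4973 spots in place of 6625, 0 to 2 members called, -2.70 to -1.60 for Ddc and -1.54 to -1.04 for Slc6a4. Runs centred gave 1 member there, with Ddc at -1.61. With names at the same spot number, other spots bear these names: the mean ratio called 0 of them (Ddc -0.33, Slc18a2 -0.45), the swap component 1 (Slc18a2 0.66, reversed against -0.31), and the Cy3 arrays 1 (Slc18a2 -1.11, Ddc -0.55, and Slc6a4 reversed at 0.0705). The cause was not tested. Centring moved the median of all spots by 0.16 in the mean ratio and by -0.11 in the swap component. No spot intensities were used here, so signal over background sets no limit that can be given.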

Other observations

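Dbh, Slc6a2 and Tph1 are annotated at numbers past 20000, where the place of a name is uncertain, so none of the spots below can be said to measure them. Dbh, dopamine beta-hydroxylase, would be spot 20536 with the shift of 11 (mean ratio -0.61, adjusted p = 0.188, swap component -0.80, adjusted p = 0.0622) and spot 20525 without it (1.02, adjusted p = 0.0151, and -0.67, adjusted p = 0.0383). Slc6a2, the noradrenaline transporter, would be spot 20741 (mean ratio -0.67, adjusted p = 0.124) or spot 20730 (-0.38, adjusted p = 0.277). Tph1, tryptophan hydroxylase of the pineal gland and gut, is listed at 2 neighbouring numbers. With the shift its spots 20763 and 20764 stood at 1.06 and -0.81 (adjusted p = 0.0144 and 0.296), the second with arrays from -3.47 to 3.79. Without it, spots 20752 and 20753 stood at 1.25 and 1.21 (adjusted p = 0.00924 each), with swap components of -0.69 and -0.78 (adjusted p = 0.0383 each) and mouse means between 1.13 and 1.30.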
